A study of Rattus norvegicus with 7 samples.

Results

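Major histocompatibility complex (MHC) antigen presentation was followed through 10 rat genes, RT1-Da, RT1-Db1, RT1-Ba, RT1-DMa, RT1-DMb, Cd74, Ciita, B2m, Tap1 and Tap2, out of 36174 gene names on the array. They were taken by name, and every probe that the array files name for them was taken, 13 probes in all. The cells were NR8383, a continuous line of rat alveolar macrophages and thus a single culture model without the other cells of the lung. Control cells (4 arrays) received no particles, and ZnO cells (3 arrays) were exposed for 4 h to zinc oxide nanoparticles in serum-free medium. The labels give a dose of 2 µg/mL for the exposure, the study's methods give another dose, and neither was used in a test. The study's methods call the samples biological replicates, without saying whether the cultures were grown on separate days, and p-values measure the spread between these samples.

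MHC class I molecules show peptides from inside the cell to CD8+ T cells. Their heavy chain needs the light chain beta-2-microglobulin (B2m), and the peptides are pumped into the endoplasmic reticulum by the transporter that Tap1 and Tap2 form. MHC class II molecules show peptides from engulfed material to CD4+ T cells. In the rat, RT1-Da and RT1-Db1 encode the alpha and beta chains of the D (DR-like) molecule and RT1-Ba the alpha chain of the B (DQ-like) molecule, while Cd74 encodes the invariant chain that fills the groove until RT1-DMa and RT1-DMb exchange its remnant for peptide. Ciita encodes the coactivator that switches class II genes on.

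The probes shown here are among those on which the contrast between measured and unmeasured class II genes and the result for Tap1 rest. The probes of RT1-Da and Cd74, also unmeasured, are left out. Each probe shown is a 60-base oligonucleotide of the array, printed 5′ to 3′ with no part in capitals, since no stretch of it is singled out.
RT1-Ba: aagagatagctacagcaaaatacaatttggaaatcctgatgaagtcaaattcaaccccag
RT1-Db1: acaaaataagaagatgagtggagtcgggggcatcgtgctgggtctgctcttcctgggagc
RT1-DMa: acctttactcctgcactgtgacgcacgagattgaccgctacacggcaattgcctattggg
RT1-DMb: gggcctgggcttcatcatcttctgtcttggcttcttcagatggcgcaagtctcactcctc
Tap1, brighter probe: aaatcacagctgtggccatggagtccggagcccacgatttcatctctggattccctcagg
Tap1, dimmer probe: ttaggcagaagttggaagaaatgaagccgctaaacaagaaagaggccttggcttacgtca
The longest run that any member probe shares with a probe of a gene outside the 10 is 15 bases, on either strand. Here and for the class II chains below, probes were compared with probes and not with whole transcripts. Binding of a probe to other transcripts was thus not tested. The RT1-Ba probe has a GC content of 36.7% and the RT1-Db1 probe one of 55.0%, and the probes of the class II and DM chains share at most 9 bases with each other.

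On rn4, the build of the array's annotation, 7 of the 10 genes lie in the MHC region of chromosome 20, on which the probes span 203 kb. From the lower coordinate, they run in the order RT1-Da (chr20:4641104-4641163), RT1-Db1 (chr20:4672665-4672724), RT1-Ba (chr20:4700973-4701032), Tap2 (chr20:4770555-4770614 and chr20:4770747-4770806), Tap1 (chr20:4793943-4794002 and chr20:4797053-4797112), RT1-DMb (chr20:4830313-4830372) and RT1-DMa (chr20:4844372-4844431). RT1-Da and RT1-Ba, whose probes were not well above background, flank RT1-Db1, whose probe was. The probes of B2m (chr3:108933795-108933854), Cd74 (chr18:56765468-56765527) and Ciita (chr10:5086386-5086445 and chr10:5087176-5087235) lie elsewhere. These are positions of the probes on the build alone, and whether each falls in an exon or in an untranslated region was not looked up here.

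Each value is a background-corrected intensity on the log2 scale, relative to the 75th percentile of its own array, with intensities at that percentile of 958 to 1489 in control cells and 980 to 1603 in exposed cells. A probe counts as measured on an array when Feature Extraction called most of its spots well above background. The lowest probe so called lay between -6.62 and -5.59 on the 7 arrays. All arrays lay on 1 slide, with control and ZnO arrays in separate columns, and an effect of slide position cannot be told apart from one of ZnO. Feature Extraction's quality report marked 4 arrays for evaluation, control replicates 3 and 4 and ZnO replicates 2 and 3, and arrays correlated with each other at 0.990 to 0.997. Of 11 macrophage markers 9 were measured on every array, whereas Marco was measured on 0 and Adgre1 on 1. Markers of epithelial cells were measured on all arrays for 0 of 5 genes, those of B cells for 1 of 4 (Pax5), of dendritic cells for 1 of 5 (Clec9a) and of T cells for 3 of 5 (Cd3d, Cd4 and Lck). A marker was counted through any of its probes. The second probes of Clec9a, Cd4 and the macrophage marker Csf1r were each measured on 0 arrays. The zinc-binding metallothionein Mt2A, a check of the exposure labels, was higher on the ZnO arrays by 5.83 on the log2 scale (limma adjusted p = 3.80e-06).

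The members fell into measured and unmeasured genes in the same way in control and exposed cells. B2m, Tap1, Tap2, RT1-DMa, RT1-DMb and RT1-Db1, 6 of the 10 genes, were well above background on all 7 arrays. RT1-Da, RT1-Ba, Cd74 and Ciita, the other 4, had no probe that passed the filter on dim probes, and were not tested with that filter in place. A signal below background is an upper bound only where the probe binds its transcript, which was not tested here. It does not say that the transcript was absent. RT1-Da, RT1-Ba and Cd74 each rest on a single probe. In a bulk sample fewer cells with a transcript and less of it in each cell cannot be told apart.

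**Figure D1:**
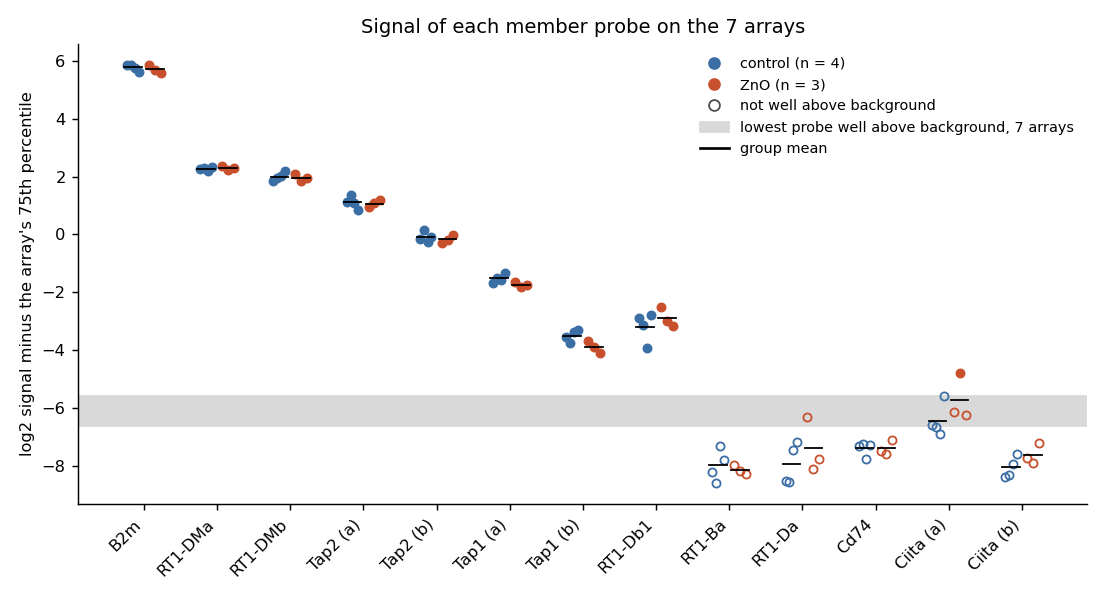
Log2 signal minus the array's 75th percentile (vertical axis) of the 13 member probes (horizontal axis; a and b are the brighter and dimmer probe of a gene) on the control arrays (blue, n = 4) and the ZnO arrays (red, n = 3), with bars at group means. Filled points are well above background and open points are not; the grey band spans the lowest probe well above background on the 7 arrays, -6.62 to -5.59, and heights of different probes cannot be set against each other.

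B2m, the light chain that every classical class I molecule carries, was bright on all arrays. Its values were 5.86, 5.87, 5.77 and 5.60 in control replicates 1 to 4 and 5.86, 5.70 and 5.60 in ZnO replicates 1 to 3. The groups overlapped, with one ZnO array as high as the upper controls and another at the level of the lowest. The log2 fold change was -0.06 (standard error, SE, 0.10, limma adjusted p = 0.999), and its 95% interval ran from -0.29 to 0.17.

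Tap1, a subunit of the peptide transporter, had the lowest log2 fold change of the 6 measured members. The brighter of its probes read -1.68, -1.51, -1.56 and -1.33 in control replicates 1 to 4 and -1.66, -1.83 and -1.76 in ZnO replicates 1 to 3. ZnO replicates 2 and 3 lay below every control, while ZnO replicate 1 lay just above control replicate 1. The log2 fold change was -0.23 (SE 0.10, 95% interval -0.46 to -0.0043), at an unadjusted p of 0.0467 and a limma adjusted p of 0.836.

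The dimmer Tap1 probe gave a value on the same side. It read -3.54, -3.76, -3.37 and -3.31 in the control replicates and -3.68, -3.89 and -4.10 in the ZnO replicates. Again ZnO replicate 1 fell among the controls and the other two lay below all of them. The log2 fold change of this probe was -0.39 (SE 0.14, 95% interval -0.72 to -0.06), with an unadjusted p of 0.0250 and a limma adjusted p of 0.799. Both probes read the same RNA of the same arrays and are not independent of each other, and neither passed the test.

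Tap2, the partner subunit, lay near its control level. Its brighter probe read 1.12, 1.38, 1.08 and 0.86 in the control replicates and 0.93, 1.09 and 1.18 in the ZnO replicates. All 3 ZnO values lay within the range of the controls, and the log2 fold change was -0.04 (SE 0.13, 95% interval -0.34 to 0.25, limma adjusted p = 0.999). The dimmer Tap2 probe was at -0.07 (SE 0.12, limma adjusted p = 0.999). The difference between the changes of Tap1 and Tap2 was not tested.

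RT1-DMa and RT1-DMb, the chains of the peptide exchanger of the class II route, were among the measured members. RT1-DMa read 2.25, 2.30, 2.21 and 2.34 in the control replicates and 2.36, 2.23 and 2.30 in the ZnO replicates. The groups covered nearly the same range, and of the members this gene had the narrowest 95% interval, from -0.14 to 0.18 around a log2 fold change of 0.02 (SE 0.07, limma adjusted p = 0.999). As a fold, that interval runs from 0.906 to 1.13.

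RT1-DMb read 1.85, 1.96, 2.02 and 2.19 in the control replicates and 2.08, 1.85 and 1.97 in the ZnO replicates. These groups overlapped as well, with ZnO replicate 2 next to the lowest control. The log2 fold change was -0.03 (SE 0.10, 95% interval -0.27 to 0.20, limma adjusted p = 0.999).

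RT1-Db1 was the only classical class II chain of the members that was measured. Its values were -2.89, -3.14, -3.93 and -2.77 in the control replicates and -2.50, -3.01 and -3.17 in the ZnO replicates. Control replicate 3 lay below all other arrays, and the remaining arrays of both groups overlapped. The log2 fold change was 0.29 (SE 0.29, limma adjusted p = 0.973), and the 95% interval, from -0.39 to 0.97, was the widest among the members tested and leaves room for a fold of up to 1.96. Without control replicate 3 the log2 fold change was 0.04.

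RT1-Da, RT1-Ba, Cd74 and Ciita gave signals near or under the lowest probe that was well above background, which had intensities of 13.4 to 24.6 in scanner units. RT1-Ba, the alpha chain of the B molecule, lay between 3.84 and 7.44 on the 7 arrays. RT1-Da, the alpha chain that pairs with RT1-Db1, lay between 3.61 and 19.8, its highest value being ZnO replicate 1, with 1 of 14 spots well above background. Cd74 was printed 10 times on each array, and 2 of these 70 spots were well above background, 1 of them marked as an outlier. Both lay on control arrays. Its median over spots ranged from 4.85 to 10.7 on the control arrays and from 5.27 to 12.2 on the ZnO arrays, so that the most replicated member probe gave no measured level in either group.

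**Figure D2:**
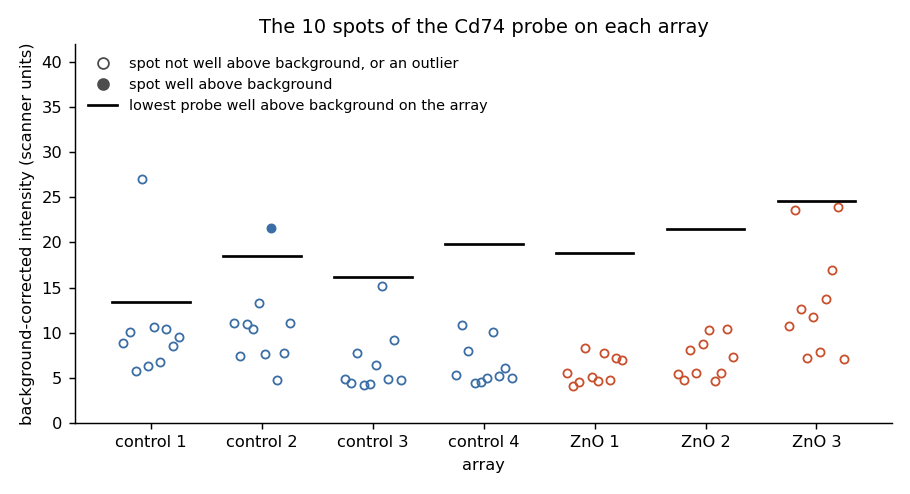
Background-corrected intensity in scanner units (vertical axis) of the 10 spots of the Cd74 probe on each of the 7 arrays (horizontal axis; control blue, ZnO red), with a bar at the lowest probe well above background on that array. A filled point is a spot well above background and no outlier, and 1 of the 70 spots, on control replicate 2, is of that kind.

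Ciita has a pair of probes. One was not well above background on any array, with intensities of 3.96 to 10.7. The other was so on ZnO replicate 2 alone, at -4.79 (47.2 in scanner units), and on the remaining arrays lay between 9.87 and 21.0. On the log2 scale of this second probe, ZnO replicates 1 and 3 lay within the range of the controls. On the first probe, ZnO replicate 3 lay above every control, at -7.23 against at most -7.58, below the lowest probe well above background. With the filter on dim probes in place, Ciita was not tested for a difference between the groups.

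Across the 6 members tested, 0 were higher and 0 were lower when limma was adjusted over all probes, at a threshold of 0.05, while 0.0619% of the 16167 genes tested passed, 10 genes that were all higher. At an unadjusted p under 0.05, 0 members were higher (3.21% of all genes) and 1 was lower (Tap1; 2.67% of all genes), and the ZnO arrays lay wholly below the controls in 0 members (3.46% of all genes) and wholly above them in 0 (4.00%). A single lower value among 6 genes is too few to set against that background. The median log2 fold change of the members was -0.04 and that of all genes -0.005.

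**Figure D3:**
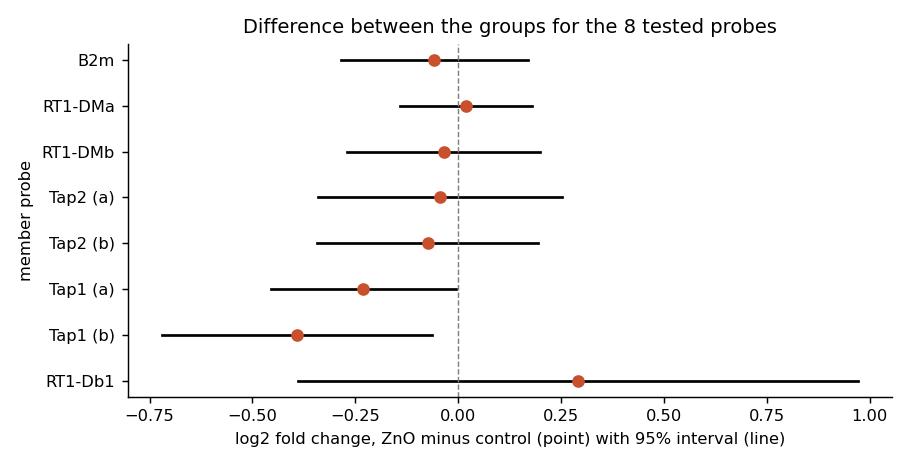
Log2 fold change of ZnO minus control (horizontal axis; point) with the 95% interval from limma (line) for the 8 tested member probes (vertical axis; a and b are the brighter and dimmer probe of a gene). The intervals of both Tap1 probes end below 0, at -0.0043 and -0.06, before adjustment for all probes, and the interval of RT1-Db1 is the widest.

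The arrays also differed within groups in ways that some members shared and others did not. Taken as deviations from the group means over the 7 arrays, RT1-DMb and Tap1 correlated at 0.95, RT1-DMa and Tap1 at 0.81, RT1-DMa and RT1-Db1 at 0.74, and RT1-DMb and Tap2 at -0.64. These coefficients rest on 7 arrays that share 1 slide and the same scaling, and are given as a description. The mean deviation of the 3 measured class II members was -0.26 on control replicate 3 and 0.22 on control replicate 4, the lowest and the highest of the arrays. On control replicate 3 that mean came mostly from RT1-Db1, which read -3.93 against a control mean of -3.18. RT1-DMa read 2.21 there against 2.28, and RT1-DMb 2.02 against 2.00, so the profile of mean deviations is not one that all 3 shared. Among 10053 other named genes, those most like this profile were Tmem80, Saa4, Sobp, Sdccag8 and Pou3f1, with correlations of 0.989 to 0.996 over 7 arrays. They are the 5 highest of all those compared, and 210 genes exceeded 0.9 in size.

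Promoters of the members are shown because the class II genes that were measured and those that were not carry a similar box in them. In the RefSeq table (build GRCr8), 8 of the 10 members have an entry; RT1-DMb and Ciita do not. Each stretch ends at the base before the annotated start and is written 5′ to 3′ along the gene, and capitals mark CCAAT or its reverse complement ATTGG, the core of the Y box that class II promoters are known for.
RT1-Da (chr20:4515315-4515414, plus strand): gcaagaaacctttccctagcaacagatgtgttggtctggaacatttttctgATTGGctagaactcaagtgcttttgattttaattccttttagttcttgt
RT1-Ba (chr20:4576957-4577056, plus strand): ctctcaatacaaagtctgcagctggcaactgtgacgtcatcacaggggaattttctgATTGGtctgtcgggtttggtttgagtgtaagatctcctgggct
RT1-Db1 (chr20:4560163-4560262, minus strand): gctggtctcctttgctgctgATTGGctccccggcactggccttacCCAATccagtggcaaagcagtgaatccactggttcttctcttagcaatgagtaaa
RT1-DMa (chr20:4712336-4712435, minus strand): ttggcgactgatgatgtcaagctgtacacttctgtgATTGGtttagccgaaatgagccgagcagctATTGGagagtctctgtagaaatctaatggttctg
In the 250 bases before the start, CCAAT on either strand was found in 6 of the 8 members and in 34.0% of all 33469 promoters. The longer TGATTGG, searched on both strands after these sequences had been read and containing ATTGG, was found in RT1-Da, RT1-Ba, RT1-Db1 and RT1-DMa, 4 of 8, and in 6.42% of all promoters. RT1-Da and RT1-Ba, with the box, were not measured well above background, and RT1-Db1 and RT1-DMa, also with it, were. TGACG on either strand, the core of sites for CREB proteins, was found in RT1-Ba and B2m (2 of 8; 18.2% of all promoters).

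The class I side shows another element. A pair of GAAA separated by 2 bases, the core of interferon response elements, was found on either strand in B2m, Tap1 and Tap2, 3 of 8 members, and in 3.41% of all promoters. Stretches around that pair are shown, from within the 250 bases before the start, with the pair in capitals, and ATTGG too in B2m.
B2m (chr3:129549170-129549279, plus strand): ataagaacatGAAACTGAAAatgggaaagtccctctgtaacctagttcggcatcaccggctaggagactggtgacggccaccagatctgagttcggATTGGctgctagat
Tap1 (chr20:4668634-4668673, minus strand): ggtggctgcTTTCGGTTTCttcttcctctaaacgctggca
Tap2 (chr20:4652317-4652356, minus strand): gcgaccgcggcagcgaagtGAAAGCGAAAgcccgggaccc
All 3 genes with this pair were measured on every array, and so were RT1-Db1 and RT1-DMa, which lack it. RT1-Da, RT1-Ba and Cd74 also lack it and were not measured. Of all 36174 gene names on the array, 16167 had a tested probe. A link between the pair and detection was not tested. TTC and GAA around 3 bases, the form of sites for STAT proteins, was found in 0 of 8 members and in 7.67% of all promoters. A match is a run of letters in this window and nothing about binding was measured.

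Other genes of the pathway were read from a list of 87 names in 9 roles. Of these, 68 were tested, and 0 rose and 0 fell by limma at the adjusted threshold of 0.05 (0.0619% of all genes). At an unadjusted p under 0.05, 1 was higher (3.21% of all genes) and 1 lower (2.67% of all genes). The ZnO arrays lay wholly below the controls in 3 (3.46% of all genes) and wholly above them in 1 (4.00%). The median log2 fold change of the list was -0.02.

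Among partners of the class II members, RT1-Bb, the beta chain that pairs with RT1-Ba, was measured on 3 of 4 control arrays and 3 of 3 ZnO arrays, and so passed the filter through the ZnO group alone. Its log2 difference was 0.37 (SE 0.31, limma adjusted p = 0.956), but 0.12 without control replicate 3 and also 0.12 without ZnO replicate 1. Of 6 class II loading genes 4 were measured on all arrays, the proteases Ctss, Ctsl and Lgmn and the reductase Ifi30, which prepare peptides and trim the invariant chain, with log2 fold changes between -0.07 (Lgmn, an asparagine endopeptidase) and 0.18 (Ctsl, cathepsin L), and 0 passed. All 7 class II transcription genes were tested, 6 of them measured on all arrays and Nfyb on all but 1 control array, so that it too passed through the ZnO group. They include Rfx5, Rfxank and Rfxap, which form the RFX complex on class II promoters, at 0.02, 0.07 and 0.04. The CCAAT-binding subunits Nfyb and Nfyc marked the ends of that group, at 0.14 (limma adjusted p = 0.976) and -0.18 (limma adjusted p = 0.866). Without control replicate 4, Nfyb was at 0.02. For Nfyc every ZnO array read less than every control array, as was so for 3.46% of all genes. So the partners of Ciita at class II promoters were measured while Ciita itself was not. In class II turnover, 3 of 3 genes were measured, from -0.05 (March1, a ubiquitin ligase of class II) to 0.09 (Cd83, which opposes it).

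On the class I side, all 11 genes of the light chain and loading group were measured on all arrays. Their log2 fold changes ran from -0.16 to 0.56. Pdia3, the disulfide isomerase of the peptide-loading complex, read 1.31, 1.28, 1.39 and 1.37 in the control replicates and 1.202, 1.15 and 1.19 in the ZnO replicates. The ZnO arrays lay wholly below the controls for this gene, as was so for 2 of the 11 genes of this group and for 3.46% of all genes. Its log2 difference was -0.16 (SE 0.06, limma unadjusted p = 0.0404, limma adjusted p = 0.830). Tapbpl, the tapasin relative that edits class I peptides, was at 0.56 (SE 0.29, limma adjusted p = 0.889) with overlapping groups. Of 38 class I heavy chain genes 27 were measured on all arrays and 29 tested, from -0.19 (RT1-M10-1) to 0.12 (RT1-A1), and 0 passed the test. RT1-M10-1 was measured on 4 of 4 control arrays and 2 of 3 ZnO arrays and passed the filter through the control group alone, and its value was 0.02 without ZnO replicate 1. These genes are close copies of each other, so that a probe may read several of them and the values of single genes are uncertain. Regulators of class I genes and of interferon gamma signalling ran from -0.13 (Irf2) to 0.17 (Irf8) in 9 tested genes, and the class I-like genes from -0.14 (Fcgrt) to 0.01 (Cd1d1) in 3.

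Costimulatory genes differed in detection. Cd274 (PD-L1, an inhibitory ligand for T cells) was well above background on all arrays, while 5 of the 6 genes of that group, Cd80, Cd86, Cd40, Icoslg and Pdcd1lg2, were not so on any. Of these, Cd80 lay at the limit. It read -6.62 to -5.98, and the lowest probe well above background lay between -6.62 and -5.59 on the 7 arrays. Cd274 read -0.41, -0.66, -0.46 and -0.86 in the control replicates and -0.26, -0.22 and -0.36 in the ZnO replicates. For this gene every ZnO array read more than every control array, as was so for 4.00% of all genes, with a log2 difference of 0.31 (SE 0.12, unadjusted p = 0.0296, limma adjusted p = 0.813). Its second probe overlapped between the groups, at 0.16.

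**Figure D4:**
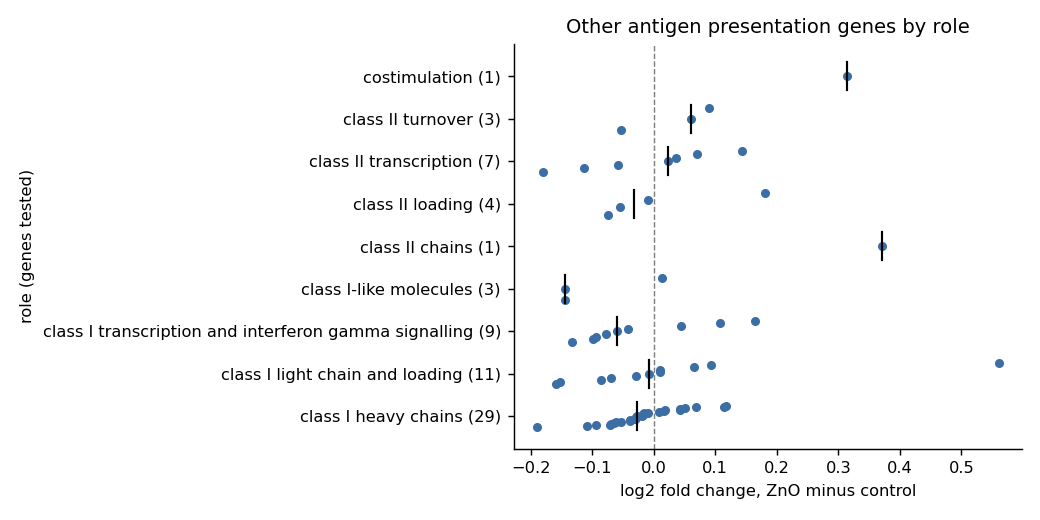
Log2 fold change of ZnO minus control (horizontal axis) for the 68 tested genes of the list beyond the 10 members (points), by role (vertical axis, number of genes tested in brackets), with a bar at each group's median. All genes but Tapbpl, RT1-Bb and Cd274, which lie at 0.56, 0.37 (0.12 without control replicate 3 or ZnO replicate 1) and 0.31, lie between -0.19 and 0.18.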

How the data were processed

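RNA of 4 control and 3 ZnO samples was hybridised to one-color Agilent rat arrays. The authors extracted intensity values with Agilent Feature Extraction 11.0.1.1, which subtracts background within each array, and deposited them unscaled. The deposited series table holds raw median intensity, exactly equal, with no tolerance, to the scanner's column at 100% of spots, and served as an alternative. The study's methods name percentile normalization, with neither percentile nor test given.

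For each array, log2 intensity minus its 75th percentile over 58717 non-control spots was taken, spots of a probe were averaged without outlier flags, and 20050 of 45598 probes were kept, those well above background throughout at least 1 group. They were tested with limma 3.58.1 in R 4.3.3 (lmFit and eBayes, tested on simulated data), with Benjamini-Hochberg adjustment over all of them. A gene takes its brightest tested probe. The wider list names each gene at an adjusted p under 0.05, the highest and lowest of each role and up to 3 at an unadjusted p under 0.05. The Rfx genes and the unmeasured costimulatory genes were named after their values were seen. Members and lists were chosen with earlier results of these data known. Plots were drawn with matplotlib 3.10.9 in Python 3.11.15.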

Additional observations from a re-analysis of the deposited data

Results flagged for a closer look

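In control cells, RT1-Bb on replicate 3 stood apart from the other controls, at -6.03 against -5.10 for the nearest, a gap of 0.855 of the group's range. It was 1 of 24 sets of 4 control arrays examined, and chance flags about 1 in 20. RT1-Db1 was lowest on the same array, and the part of the array in either value was not tested.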

How the results depend on the processing

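In 19 alternative settings of normalization, background correction, filter, variance, weights, blocking, probe summary and arrays, 0 members and 0 genes of the wider list passed an adjusted p under 0.05 from limma in any. The setting with no filter on dim probes also took in RT1-Da (0.53), RT1-Ba (-0.16), Cd74 (0.004) and Ciita (0.72), at limma adjusted p of 0.968, 0.968, 0.999 and 0.968. These values rest on signals mostly not well above background. RT1-Db1 stayed above 0 (0.04 to 0.52) and Tap1 below it (-0.31 to -0.07). Tap1 was below an unadjusted p of 0.05 in 8 settings. In 9 no member was: both normexp settings, no filter on dim probes, the deposited table, and without control replicate 2, 3 or 4 or ZnO replicate 2 or 3. In the other 2, the replicate block (0.43, unadjusted p = 0.0352) and the arrays in range (0.52, unadjusted p = 0.0209), RT1-Db1 was, on the higher side. The sign of RT1-DMa turned with quantile normalization (-0.0102), median centring (-0.0181), normexp with quantile normalization (-0.0012) and array weights (-0.0147), and leaving out 1 array gave values from -0.0130 to 0.0520. RT1-DMb turned with normexp and the 75th percentile (0.0209), the deposited table (0.0380) and with only the 3 arrays in range in the quality report (0.18), with 1 ZnO array assumed to vary like the others, a setting chosen after seeing the data; leaving out 1 array gave -0.0924 to 0.0268. The 3 arrays in range put the members' median at 0.04, Tap2 at -0.31 (adjusted p = 0.310) and Tap1 at -0.07 (adjusted p = 0.786). B2m ran from -0.127 to 0.0027 and Tap2 from -0.127 to 0.0454 without 1 array each.

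Same-numbered control and ZnO arrays did not deviate together (correlations of -0.23 to 0.21 over 3 pairs), so the numbers were not taken as pairs. With the number as a replicate block, in which control replicate 4 stands alone and adds nothing, 0 members passed, RT1-DMb was at 0.0268 and Tap1 at -0.17. Over all probes 10 passed, and 4 to 15 in the alternatives, with 4 under the block, 5 with no filter, 5 with the arrays in range, 14 with a trended and robust variance and 15 with array weights. A slide block was not run, as there was 1 slide. The intervals given are not adjusted for the number of probes, and are no limit of detection at the adjusted threshold. Both Tap1 probes had intervals below 0, at limma adjusted p of 0.836 and 0.799. With 7 arrays, changes larger than the intervals could thus also go uncalled. Dim members have at most a bound, which holds only where their probes bind.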
